A study of Mus musculus with 12 samples.

Results

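The genes described here are 34 interferon-stimulated and double-stranded RNA sensing genes, named by symbol, each measured by its single-gene probe set with the highest mean over the 12 arrays. A probe set of its own was found for 33 of the 34, among 18820 genes measured in this way, and Ifi44 was not analysed here. Each of the 33 had exactly 1 single-gene probe set, so the rule made no choice between probe sets, and for Oas1a a further probe set shared with Oas1g was left aside. The samples were the medial prefrontal cortex of 6 offspring of mothers given PolyI:C and of 6 control offspring of mothers given saline. PolyI:C, a synthetic double-stranded RNA that mimics viral infection, was injected intravenously at 5 mg/kg on gestation day 17. All offspring were C57BL/6 mice (C57BL/6N in the strain label), 12 weeks old and behaviourally tested before the tissue was taken, and each had 1 array. The labels used here give no litter, sex or array strip, and littermates among the 12 would make the p-values too small.

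Double-stranded RNA in the cytoplasm is recognised by the helicases RIG-I (Ddx58) and MDA5 (Ifih1), which signal through the mitochondrial adaptor MAVS, and in endosomes by TLR3. The kinase TBK1 then activates IRF3 and IRF7, which switch on the genes of type I interferons. Secreted interferon acts through its receptor on a complex that holds STAT2 and IRF9, which binds interferon-stimulated response elements in the promoters of antiviral genes and raises their transcription, usually for hours to days. The comparison asks whether any of these genes stood at another level in adulthood, long after the prenatal exposure.

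The response element is what many of these promoters share. The rule that chose the genes did not read promoters, but it named interferon-stimulated genes, and interferon acts through this element. The share of matches is thus not independent of the choice of genes. In the RefSeq promoter windows of GRCm38.p6, which run from 250 bases before to 50 bases after the annotated start, 27 of the 34 genes had an entry. The letters GAAA, a pair of any bases and GAAA again, searched on both strands with overlapping matches allowed, stood in the windows of 15 of the 27 genes (55.6%), against 1079 of all 27025 genes in the table (3.99%). In 11 of the 15 a match lay before the start, and in Ddx58, Ifih1, Eif2ak2 and Ifitm3 the matches began after it or ran across it. A match is a description of the letters and does not show binding. The following 40-base stretches are from genes whose values are described below, written 5′ to 3′ on the strand of the gene, with the match in capitals. A match that starts with TTTC is the same element read on the other strand.
Stat2: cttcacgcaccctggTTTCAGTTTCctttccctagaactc
Ifit1: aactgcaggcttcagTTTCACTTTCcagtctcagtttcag
Ifit3: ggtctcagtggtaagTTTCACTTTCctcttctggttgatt
Isg15: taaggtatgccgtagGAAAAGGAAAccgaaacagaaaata
Gbp2: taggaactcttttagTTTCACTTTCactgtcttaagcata
Cxcl10: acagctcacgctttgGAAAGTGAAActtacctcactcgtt
These stretches lie at chr10:128270261-128270300 on the plus strand (Stat2), chr19:34640770-34640809 on the plus strand (Ifit1), chr19:34583358-34583397 on the plus strand (Ifit3), chr4:156200872-156200911 on the minus strand (Isg15), chr3:142620589-142620628 on the plus strand (Gbp2) and chr5:92349078-92349117 on the minus strand (Cxcl10). Isg15 held 3 overlapping matches in this window, Ifit1 and Ifit3 held 2 each, and Stat2, Gbp2 and Cxcl10 held 1 each.

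None of the 33 genes differed between PolyI:C and control offspring at an adjusted p under 0.05 in limma, where 653 of all 23099 annotated probe sets did (2.83%, with 2.02% higher and 0.805% lower after PolyI:C). At an unadjusted p under 0.05 there were 4 of the 33 (12.1%), against 19.1% of all probe sets tested (11.7% higher and 7.33% lower after PolyI:C). The 4 were Ddx58 and the antiviral GTPase gene Mx1, with lower means after PolyI:C, and Tbk1 and Stat2, with higher means. The median log2 difference over the 33 genes was -0.011, against 0.0030 over all probe sets tested, and 21 of the 33 had a lower mean after PolyI:C, against 48.0% of all probe sets. The groups overlapped in all 33 genes, while they did not overlap in 2.37% of all probe sets.

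The intervals of the differences were narrow. For 32 of the 33 genes the 95% interval of the difference lay within 1.2-fold either way (log2 0.26), as it did for 95.2% of all probe sets tested. The exception was Ifitm3, with an interval from -0.34 to 0.027. No gene reached a 1.2-fold difference, against 0.866% of all probe sets, and the median absolute log2 difference was 0.048 among the 33 and 0.044 among all. A p that misses the threshold does not show that the groups were alike, and the intervals bound only differences on the scale of these arrays, where background compresses the changes of dim probe sets.

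**Figure D1:**
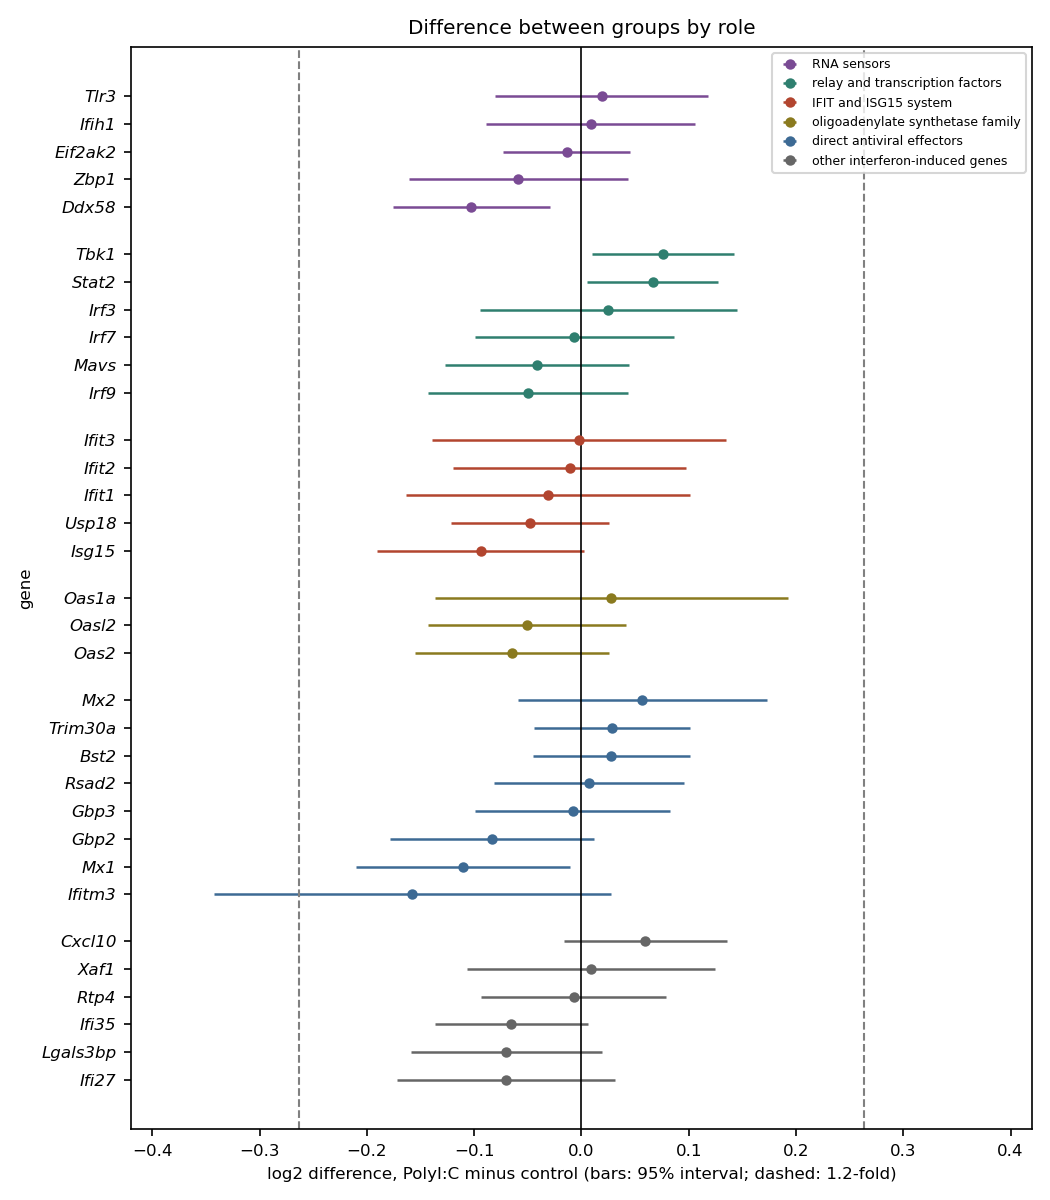
Log2 difference between PolyI:C and control offspring (horizontal axis, PolyI:C minus control) for each of the 33 genes, grouped by role. Points are the estimates, bars the 95% intervals from limma and dashed lines a 1.2-fold difference; only the bar of Ifitm3 crosses a dashed line, and 4 bars, those of Ddx58, Tbk1, Stat2 and Mx1, do not reach 0.

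**Figure D2:**
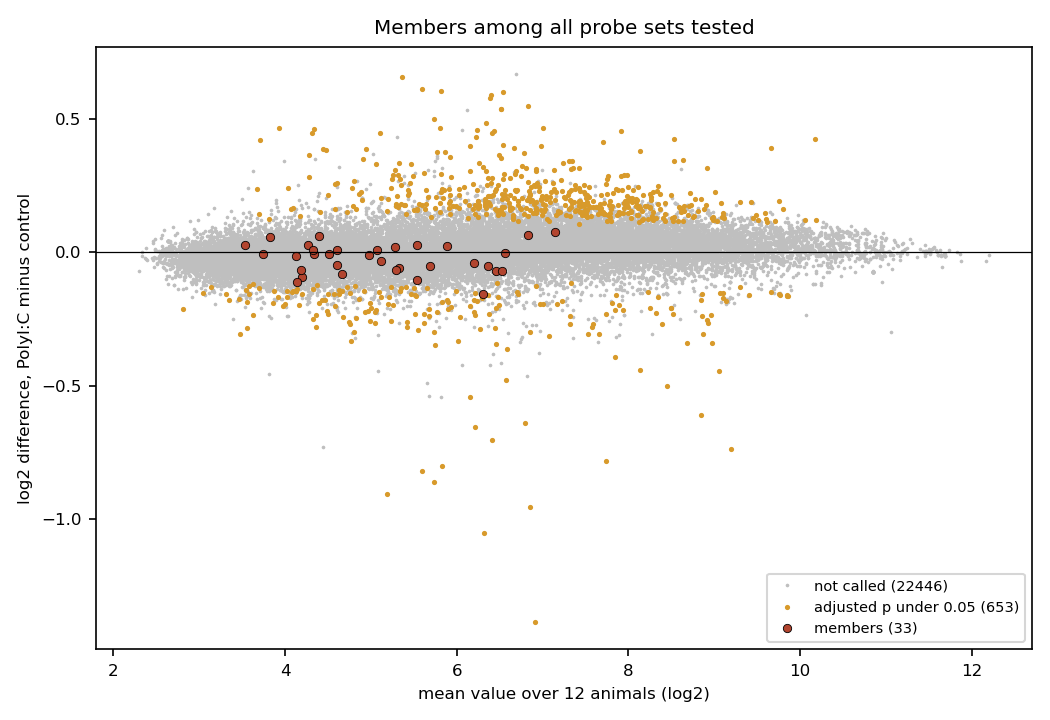
Log2 difference, PolyI:C minus control (vertical axis), against the mean value over the 12 animals (log2, horizontal axis) for the 23099 probe sets tested. Grey points did not pass, yellow points are the 653 with an adjusted p under 0.05, and the 33 outlined red points lie between -0.16 and 0.076 among the grey ones.

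Most of these probe sets were dim. Their means over the 12 arrays ran between 3.53 and 7.14 on the log2 scale, with a median of 5.07, against 5.88 for all single-gene probe sets, and 9 of the 33 lay above that median. As a floor from genes of which few are known in cortex, the 95th percentile of 1182 olfactory and vomeronasal receptor probe sets was 4.50, and 22 of the 33 genes lay above it. The same holds for 72.8% of all single-gene probe sets. The 11 at or below the floor were Irf7, Isg15, Eif2ak2, Oas1a, Oas2, Mx1, Mx2, Trim30a, Cxcl10, Rtp4 and Xaf1, and for these a level above background was not shown. Brightness depends on the probes as well as on the transcript, so the order of genes by brightness is not an order of abundance.

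**Figure D3:**
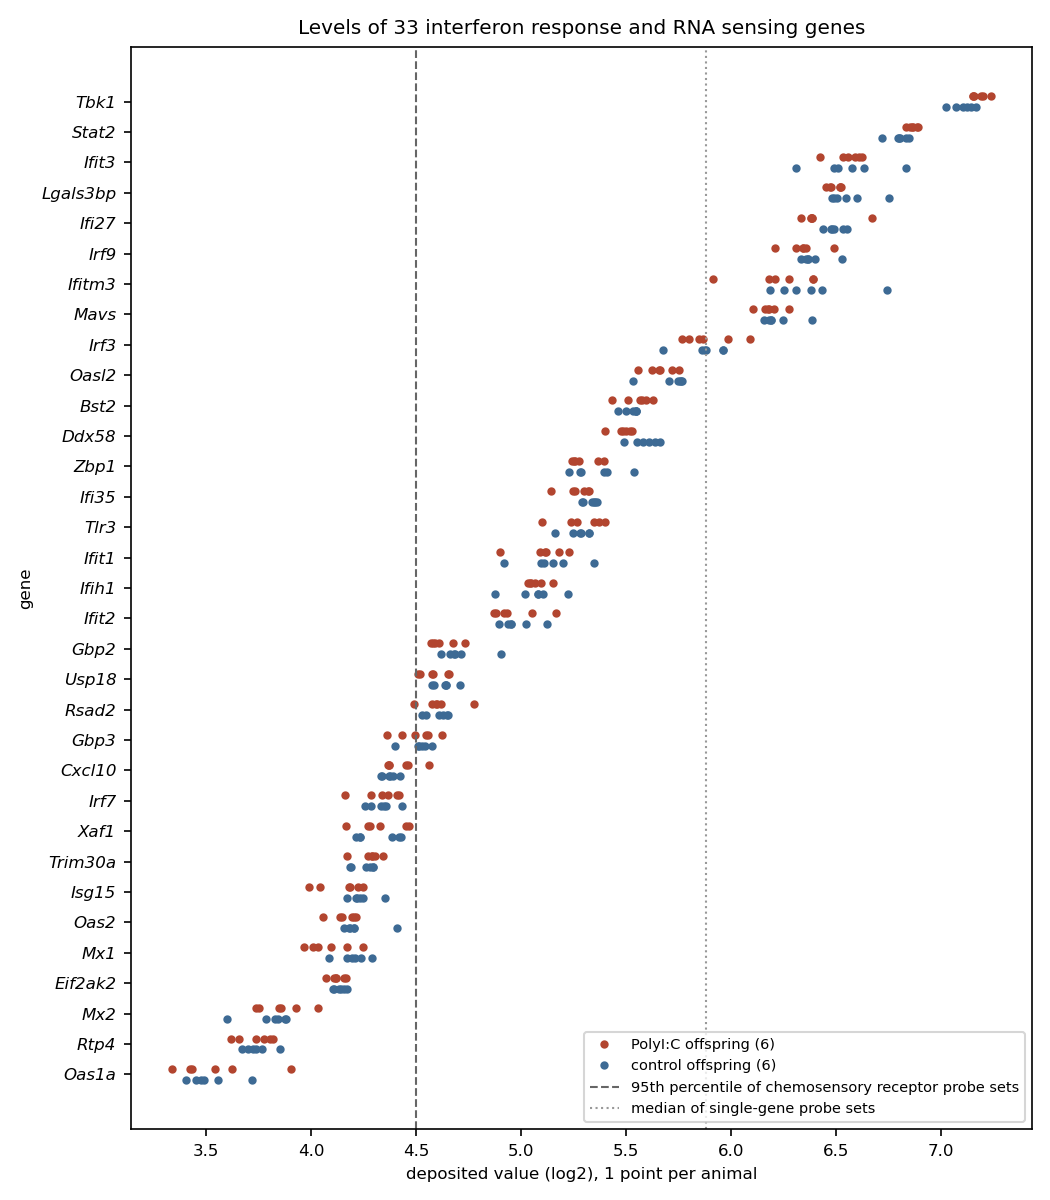
Deposited value (log2, horizontal axis) of each of the 33 genes in each animal, sorted by mean, with red points for the 6 PolyI:C offspring above blue points for the 6 control offspring. The dashed line at 4.50 is the 95th percentile of olfactory and vomeronasal receptor probe sets and the dotted line at 5.88 the median of single-gene probe sets; in every gene the red and blue points overlap.

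Among the RNA sensors, Ddx58 gave the lowest p of all 33 genes. Its values were 5.40, 5.49 and 5.53 (lowest, median and highest of 6) in PolyI:C offspring, against 5.49, 5.59 and 5.66 in control offspring. All 6 PolyI:C offspring lay below the control mean, and 1 control, at 5.49, lay inside the PolyI:C range. The log2 difference was -0.10 ± 0.035 (SE), with an adjusted p of 0.112 in limma. Ifih1, which encodes the other cytoplasmic helicase, ran 5.03, 5.06 and 5.15 in PolyI:C offspring and 4.87, 5.08 and 5.22 in control offspring. The PolyI:C values thus fell inside the control range, with a difference of 0.0084 ± 0.046. Tlr3, the endosomal receptor at which PolyI:C itself acts, ran 5.10, 5.31 and 5.40 in PolyI:C offspring and 5.16, 5.28 and 5.32 in control offspring (difference 0.019 ± 0.047). The PolyI:C range was the wider and took in all control values. Zbp1, a sensor of left-handed nucleic acid, differed by -0.059 ± 0.048, and Eif2ak2, the kinase PKR that halts translation on binding double-stranded RNA, by -0.014 ± 0.028.

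In the relay from sensor to nucleus, Mavs, the mitochondrial adaptor, ran 6.10, 6.18 and 6.27 in PolyI:C offspring and 6.16, 6.19 and 6.39 in control offspring, overlapping over most of the range (difference -0.042 ± 0.041, and -0.0092 without control 3). Tbk1, the kinase next in line, ran 7.15, 7.17 and 7.24 in PolyI:C offspring and 7.02, 7.11 and 7.17 in control offspring. All 6 PolyI:C offspring lay above the control mean, and 3 lay above the highest control. The difference was 0.076 ± 0.031, with a 95% interval from 0.0098 to 0.14 and an adjusted p of 0.192. Stat2, a subunit of the complex that binds the response element, ran 6.83, 6.86 and 6.89 in PolyI:C offspring and 6.72, 6.80 and 6.85 in control offspring. Here 5 of the 6 PolyI:C offspring lay above the highest control, with a difference of 0.066 ± 0.029 and an adjusted p of 0.220. Irf9, its DNA-binding partner, had the opposite sign, at -0.050 ± 0.044. Irf3, the factor that is present before infection, differed by 0.025 ± 0.057. Irf7, which interferon itself induces and which is often taken as a gauge of signalling, ran 4.16, 4.35 and 4.42 in PolyI:C offspring and 4.26, 4.34 and 4.44 in control offspring. The ranges of Irf7 overlapped over most of their length, at a brightness under the receptor floor (difference -0.0069 ± 0.044).

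Of the IFIT proteins, IFIT1 binds foreign RNA lacking the host's cap methylation, and ISG15 is a ubiquitin-like protein that is attached to other proteins. Ifit1 ran 4.90, 5.12 and 5.23 in PolyI:C offspring and 4.92, 5.13 and 5.35 in control offspring, and 5 of the 6 PolyI:C values lay inside the control range (difference -0.031 ± 0.063). Ifit3 ran 6.42, 6.57 and 6.63 in PolyI:C offspring and 6.31, 6.54 and 6.83 in control offspring. Both the highest and the lowest of the 12 values of Ifit3 were controls, and the difference was -0.0024 ± 0.065. Ifit3 has a near-identical neighbour, Ifit3b, so its value may hold signal of both. Ifit2 differed by -0.011 ± 0.051, and Usp18, the protease that removes ISG15 and damps the receptor, by -0.048 ± 0.035.

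Isg15 ran 3.99, 4.18 and 4.25 in PolyI:C offspring and 4.17, 4.23 and 4.35 in control offspring. Of the PolyI:C offspring, 2 lay below all controls and 5 below the control mean, and the difference was -0.094 ± 0.046 (adjusted p = 0.275). The annotation assigns this probe set to Isg15, but its identifier stands between those of Abcc10 and Slc22a7. Of its 10 nearest single-gene identifiers, 0 belonged to genes near Isg15 in RefSeq, against 5 to 10 of 10 for each of the other 32 genes. Whether it measured Isg15 or a similar sequence elsewhere cannot be told from these files.

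The oligoadenylate synthetases make a messenger that activates the ribonuclease RNase L. Oas1a differed by 0.028 ± 0.078, Oas2 by -0.065 ± 0.043 and the relative Oasl2 by -0.050 ± 0.044. In Oas2, all 6 PolyI:C offspring lay below the control mean, which included 1 control at 4.41, with the other controls at 4.21 or less.

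Of the direct antiviral effectors, Mx1 ran 3.97, 4.06 and 4.25 in PolyI:C offspring and 4.09, 4.20 and 4.29 in control offspring. 3 PolyI:C offspring lay below the lowest control, with a difference of -0.11 ± 0.047 and an adjusted p of 0.208. C57BL/6 mice carry a defective Mx1 allele, and the probe set lay under the receptor floor. Its paralogue Mx2 had the opposite sign (0.057 ± 0.055). Ifitm3, a membrane protein that blocks viral entry, had the largest difference of the 33 with all animals included. Its values were 5.91, 6.24 and 6.39 in PolyI:C offspring and 6.19, 6.34 and 6.74 in control offspring, and the difference was -0.16 ± 0.087 (adjusted p = 0.339). The highest value, 6.74, came from control 5, and the lowest, 5.91, from PolyI:C 5. The difference was -0.086 without control 5, where that of Mx1 was -0.133, and -0.095 without PolyI:C 5, so the rank of Ifitm3 rested on these animals. Gbp2, an interferon-induced GTPase, ran 4.57, 4.60 and 4.73 in PolyI:C offspring and 4.62, 4.68 and 4.90 in control offspring, again with its highest value in control 5 (difference -0.083 ± 0.045, and -0.045 without that animal). Its relative Gbp3 differed by -0.0082 ± 0.043. Bst2, the tetherin that holds budding virus at the cell surface, differed by 0.028 ± 0.035, Trim30a, a restraint on innate signalling, by 0.028 ± 0.034, and Rsad2, the enzyme viperin, by 0.0070 ± 0.042.

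Among the remaining interferon-induced genes, Ifi35 ran 5.14, 5.28 and 5.32 in PolyI:C offspring and 5.29, 5.34 and 5.36 in control offspring. All 6 PolyI:C offspring lay below the control mean, and 3 below the lowest control (difference -0.065 ± 0.034, adjusted p = 0.305, and -0.041 without PolyI:C 4). Lgals3bp, which encodes a secreted glycoprotein, ran 6.45, 6.50 and 6.52 in PolyI:C offspring and 6.48, 6.53 and 6.75 in control offspring, with the top value in control 5 (difference -0.070 ± 0.042, and -0.032 without that animal). Ifi27 had 5 of 6 PolyI:C offspring below the lowest control, while PolyI:C 5, at 6.67, lay above all controls. Its difference was -0.070 ± 0.048 (adjusted p = 0.445), and without PolyI:C 5 it was -0.12, which passed the threshold (adjusted p = 0.0456). No other single animal, when left out, brought a member of the 33 past the threshold. Cxcl10, a chemokine that draws T cells, differed by 0.060 ± 0.036, Xaf1, a gene linked to cell death, by 0.0085 ± 0.055, and Rtp4, a receptor chaperone, by -0.0074 ± 0.041.

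The animals differed from one another by little, and the genes varied together only weakly. The median within-group SD was 0.081 over the 33 genes and 0.076 over the 12889 single-gene probe sets in the same brightness range. After removal of group means, the median correlation between animals' values over the 528 pairs of genes was 0.080 (Pearson's r), against 0.023 over all pairs of probe sets in that range, and Spearman's rho had a median of 0.084. The points share arrays, and no test was made. Control 5 had the highest of the 12 values in 9 of the 33 genes (Irf7, Irf9, Ifit1, Ifit3, Usp18, Ifitm3, Gbp2, Rtp4 and Lgals3bp), while over all probe sets in the range it was highest in 8.3%. The mean over the 33 genes was also the highest of the 12 in control 5, at 5.19. PolyI:C offspring lay at 5.15 or less and the other controls at 5.17 or less. Without control 5 the median correlation was 0.048. The animal with the next most highest values, PolyI:C 4, had 5.

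Control 5 also had the highest mean of 7 striatal markers, at 7.51. PolyI:C offspring lay at 6.88 or less and the other controls at 7.34 or less. Control 6 came next after control 5 in the striatal markers Drd2 (6.35), Gpr6 (6.22) and Ppp1r1b (7.55). The highest PolyI:C values of these were 5.56, 5.61 and 7.26. In control 5 the mean of 6 astrocyte markers, 8.61, was likewise the highest of the 12. PolyI:C offspring lay at 8.59 or less there and the other controls at 8.56 or less. The mean of control 5 over 16 microglia markers, 6.64, lay within the range of the other animals, as did its mean over 10 endothelial markers (6.83). Their part in the values of control 5 was not tested.

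**Figure D4:**
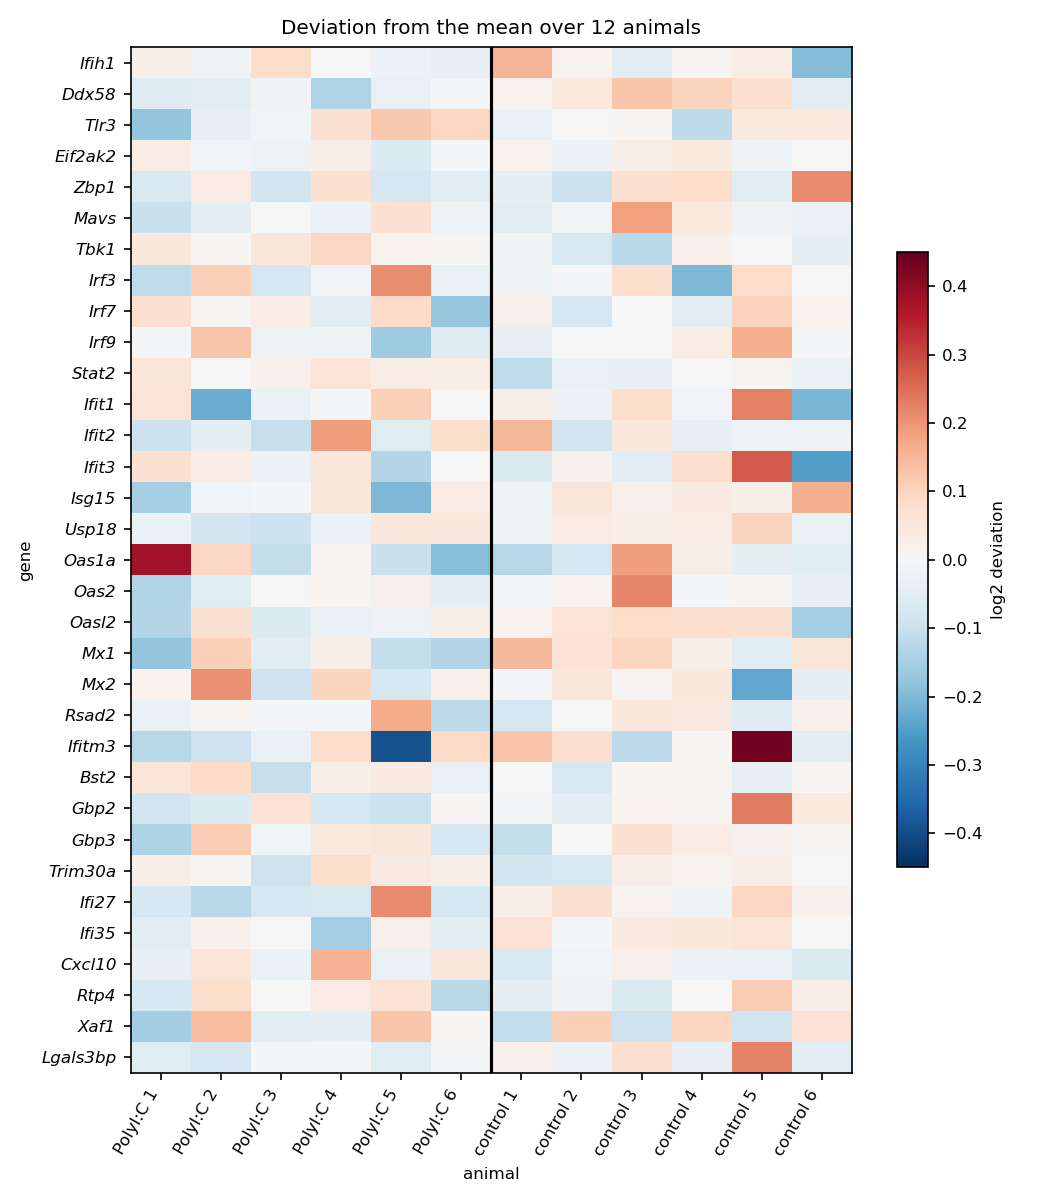
Deviation of each value from its gene's mean over the 12 animals (log2, colour scale, blue below and red above the mean) for the 33 genes (rows, in the order of their roles) in 6 PolyI:C offspring left of the black line and 6 control offspring right of it. Red cells are scattered over both groups, and the column of control 5 holds the red cells of Ifit1, Ifit3, Ifitm3, Gbp2 and Lgals3bp.

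The pathway was then followed beyond the 33 genes in 4 further lists, in which 4 of 111 measured genes passed the adjusted threshold, 3 higher and 1 lower after PolyI:C. That is 3.6%, near the 2.83% of all probe sets tested. At an unadjusted p under 0.05 there were 23 of the 111 (20.7%), against 19.1% of all probe sets. Of 48 further interferon-stimulated genes, 2 rose and 46 did not pass, and 7 had an unadjusted p under 0.05. Herc6, which in the mouse encodes the main ligase that attaches ISG15 to proteins, ran 6.80, 6.95 and 7.19 in PolyI:C offspring and 6.56, 6.68 and 6.72 in control offspring. All PolyI:C values lay above all control values, and Herc6 rose by 0.32 ± 0.055 (1.24-fold, adjusted p = 0.0106). Pnpt1, a mitochondrial polynucleotide phosphorylase that degrades RNA, ran 6.73, 6.77 and 6.82 in PolyI:C offspring and 6.48, 6.57 and 6.68 in control offspring. Its groups did not overlap either, and it rose by 0.20 ± 0.038 (1.15-fold, adjusted p = 0.0129). Such separation was found in 2 of the 48 and in 3 of the 111 genes, against 2.37% of all probe sets. The calls of Herc6 and Pnpt1 both held without any single animal. The list's median log2 difference was -0.013, and Slfn5, with the next lowest p, differed by -0.11 ± 0.045 (adjusted p = 0.176).

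Of 21 receptor and relay genes, Ptpn2, a phosphatase that inactivates JAK and STAT proteins, rose and 20 did not pass. Of all probe sets, 2.83% passed. An unadjusted p under 0.05 was found for 6 of the 21 (28.6%), against 19.1% of all probe sets. In Jak1 alone of the 21 the groups did not overlap, as in 2.37% of all probe sets. Jak1 ran from 9.20 to 9.24 in PolyI:C offspring and from 9.13 to 9.18 in control offspring (difference 0.062 ± 0.025, adjusted p = 0.193 in limma). Ptpn2 ran 5.92, 6.00 and 6.06 in PolyI:C offspring and 5.77, 5.78 and 6.01 in control offspring. The control at 6.01 was control 5, and the other 5 controls lay at 5.81 or less. The difference was 0.16 ± 0.042 (adjusted p = 0.0477), a call that held only without PolyI:C 2 or control 5 and was lost when any 1 of the other 10 animals was left out (adjusted p up to 0.0998). It was also lost after quantile normalization (adjusted p = 0.0635) and after centring each array on its median (0.0798). Jak2, a kinase of the interferon gamma receptor, differed by 0.13 ± 0.039 (adjusted p = 0.0730, 0.0365 without control 5, 0.0327 without controls 5 and 6 together, and 0.0477 with probe sets under the 50th percentile of brightness left out), and Ptpn11 by -0.090 ± 0.033 (adjusted p = 0.143).

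Of 14 interferon genes, Ifna6 fell and 13 did not pass, where 2.83% of all probe sets passed. An unadjusted p under 0.05 was found for 5 of the 14 (35.7%), against 19.1% of all probe sets. All 5 had lower means after PolyI:C, against 7.33% of all probe sets in that direction. Only 8 of the 14 lay above the receptor floor. Among the 5, Ifng, Ifne and Ifna11 lay under it (means 4.38, 4.09 and 3.52), and for these a level above background was not shown. Ifna6 ran 4.64, 4.91 and 4.96 in PolyI:C offspring and 4.96, 5.09 and 5.15 in control offspring, and 1 animal of each group lay inside the range of the other. The difference was -0.22 ± 0.054 (adjusted p = 0.0400), a call that held only without PolyI:C 2 or PolyI:C 5 and was lost when any 1 of the other 10 animals was left out (adjusted p up to 0.0879), and also without controls 5 and 6 together (0.0773). The interferon alpha genes are close copies of one another, so the signal of 1 member is uncertain, and its mean of 4.96 stood little above the receptor floor. Ifnk and Ifng both differed by -0.13 (SE 0.042 and 0.048; adjusted p = 0.102 and 0.151). Of 28 further sensing genes none passed in limma and 5 had an unadjusted p under 0.05 (17.9%, against 19.1% of all probe sets). The lowest p among them was that of Dhx36, a helicase of structured nucleic acid (0.12 ± 0.037, adjusted p = 0.0950), followed by Tlr7, a receptor of single-stranded RNA (0.11 ± 0.042), and Trim25, a ligase that activates RIG-I (-0.081 ± 0.033).

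**Figure D5:**
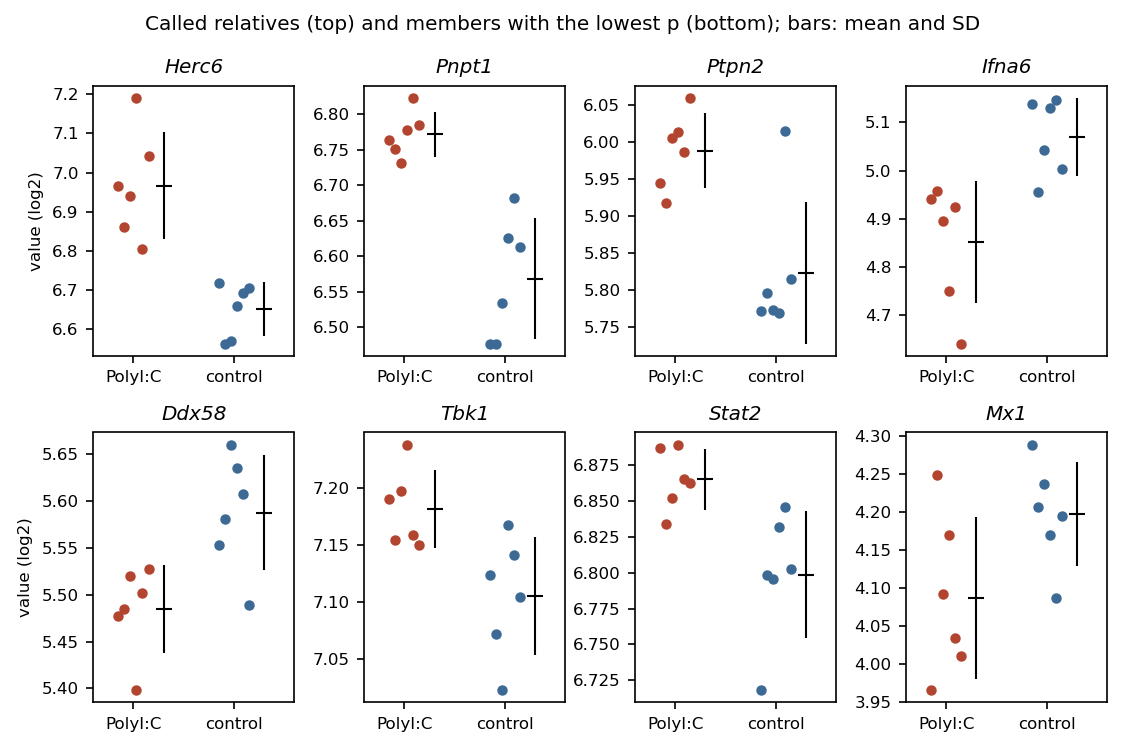
Value (log2, vertical axis, a separate scale in each panel) in 6 PolyI:C offspring (red, left) and 6 control offspring (blue, right), with black bars for the mean and SD. The upper row shows the 4 called genes of the further lists, of which Herc6 and Pnpt1 do not overlap between groups; the lower row shows the 4 of the 33 genes with the lowest p, which all overlap.

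Markers of the cells that could carry such a response were measured in the same fit, in which 19.1% of all probe sets had an unadjusted p under 0.05. In bulk tissue, fewer cells of a type and less RNA per cell cannot be told apart. Of 16 microglia markers none passed in limma and 1, Sall1, had an unadjusted p under 0.05 (-0.098 ± 0.044, adjusted p = 0.231). The list mean ran between 6.55 and 6.69 in PolyI:C offspring and between 6.57 and 6.68 in control offspring. Of 10 endothelial and 6 astrocyte markers none passed and 0 had an unadjusted p under 0.05. Of 10 leukocyte markers none passed and 1 had such a p, and of 6 pericyte and 6 choroid plexus or meningeal markers none passed and 2 of each had one. Of 4 sex-linked genes none passed and 3 (Kdm5d, Eif2s3y and Uty) had such a p, all with higher means after PolyI:C. In all 12 animals Xist lay between 3.13 and 3.22, under the receptor floor of 4.50. The Y-linked Kdm5d, Eif2s3y and Uty lay above that floor in every animal (lowest values 6.18, 5.29 and 6.19). That is the pattern of males in both groups. The 5 measured markers of cortical excitatory neurons were bright, with Slc17a7 at the 99.5th percentile, and none passed. Neurod6, a transcription factor of these neurons, had an unadjusted p of 0.0071 in limma (0.12 ± 0.039), with all 6 PolyI:C offspring above the control mean. It was the only 1 of the 5 under 0.05. Slc17a7, Neurod2, Tbr1 and Camk2a differed by -0.00078, -0.024, 0.012 and 0.014, so the list did not rise as a whole. Calls were made among 5 mature oligodendrocyte markers (Mobp, Cldn11 and Cnp, all lower) and among 7 striatal markers (Ppp1r1b, lower), and 5 of each list had an unadjusted p under 0.05. All 5 and all 7 had lower means after PolyI:C, against 48.0% of all probe sets. Their log2 differences ran from -0.50 to -0.32 and from -0.54 to -0.15. In each list 5 markers differed by at least 1.2-fold, against 0.866% of all probe sets and none of the 33 genes. The Cnp and Ppp1r1b calls were lost in 3 and 5 of the 12 fits that left out 1 animal. The part of these markers in the values of Herc6, Pnpt1, Ptpn2 and Ifna6 was not tested.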

How the data were processed

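Total RNA (250 ng) was measured on Affymetrix Mouse Gene 1.1 ST strips, per the labels' protocols; both a 3' IVT and a whole-transcript kit are named there. The authors deposited 1 log2 value per probe set and array. The submitters' processing notes list RMA and Partek 6.6 with no role or order. The sources used here give no genome build. Medians of the arrays ran between 5.15 and 5.21, and pairs of arrays correlated at 0.994 to 0.998 across probe sets. The number of arrays limits the precision.

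Of 35556 probe sets, 23099 had at least 1 gene in the platform annotation and were tested, and 21218 had exactly 1. The group difference, PolyI:C minus control, was fitted in limma 3.58.1 (lmFit, then eBayes; R 4.3.3), and two-sided p-values were adjusted by Benjamini-Hochberg for all 23099. SE and 95% intervals are moderated. Promoters were searched in Python 3.11.15. The members and lists were chosen with earlier results of these data known. Values per group are given for the 8 genes with the lowest p, the 6 largest differences, the 4 brightest and 7 pathway genes, and for called or lowest-p genes of the further lists. Alternatives were a replicate block, array weights, other normalizations, filters, variance models and left-out animals.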

Additional observations from a re-analysis of the deposited data

Results flagged for a closer look

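Dixon's ratio at 95% was applied to 100 groups of 6 animals, over 50 of the genes named in the text. Other named genes, such as Jak1 and Neurod6, were not screened. In 9 of the 100 groups 1 animal stood apart from the other 5, and chance gives about 1 in 20. Control 5 was that animal in 4 of them. It was at 6.53 for Irf9 (other controls 6.33 to 6.40), at 4.90 for Gbp2 (4.62 to 4.71), at 3.60 for Mx2 (3.79 to 3.88) and at 6.01 for Ptpn2 (5.77 to 5.81). Among the other controls, Irf3 was at 5.68 in control 4 (others 5.86 to 5.96), Oas2 at 4.41 in control 3 (4.16 to 4.21) and Oasl2 at 5.54 in control 6 (5.70 to 5.77). In PolyI:C 5, Ifi27 was at 6.67, where the other PolyI:C offspring ran 6.33 to 6.39. In PolyI:C 4, Mobp, a myelin gene outside the interferon lists, was at 7.73 (others 8.18 to 8.39).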

How the results depend on the processing

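None of the 33 genes passed in 22 of the 23 alternative fits, and Ifi27 did in the other, without PolyI:C 5, so the count ran between 0 and 1 when single animals were left out. The filters at the 25th and 50th percentile of brightness tested 23 and 9 of the 33. Called probe sets over the whole table, 653 in all, ran between 230 and 818 when single animals were left out, was 122 without variance moderation, 414 with all rows tested and 536 with the replicate number as a block. The count was 236, 302, 392 and 396 without PolyI:C 1, 4, 6 and 3, and 230, 281 and 331 without controls 2, 3 and 1. The replicate numbers were not taken as pairs: same-numbered samples deviated together at r = -0.092 to 0.11, and 0 of 6 PolyI:C offspring correlated best with the control of their own number. The block cost the call of Ptpn2 (adjusted p = 0.0595) and no other call of the text. Small differences changed sign. With median centring Ifih1 was at -0.0019, Rsad2 at -0.0033 and Xaf1 at -0.0018, and with array weights Ifit3 was at 0.017, Rsad2 at -0.0014 and Xaf1 at -0.0085. Without controls 5 and 6 together, Ifih1 was at -0.029, Irf7 at 0.021, Ifit3 at 0.0036 and Rtp4 at 0.027, the calls of Ifna6 (adjusted p = 0.0773) and Ppp1r1b (0.0538) were lost, and Jak2 passed (0.0327), as it did with the filter at the 50th percentile (0.0477). With single animals left out, the log2 difference ran from -0.029 to 0.040 for Ifih1, -0.0040 to 0.056 for Tlr3, -0.015 to 0.051 for Irf3, -0.025 to 0.027 for Irf7, -0.075 to 0.011 for Ifit1, -0.050 to 0.018 for Ifit2, -0.052 to 0.052 for Ifit3, -0.045 to 0.069 for Oas1a, -0.026 to 0.031 for Rsad2, -0.032 to 0.020 for Gbp3, -0.024 to 0.016 for Rtp4 and -0.019 to 0.041 for Xaf1. In 27 of the 33 genes at least 1 left-out animal moved the difference by over 1.5 times. Among those that kept their sign, it came to -0.027 for Oas2 without control 3, -0.022 for Zbp1 without control 6, -0.023 for Irf9 without PolyI:C 5 or control 5, 0.016 for Mx2 without control 5, and 0.034 for Cxcl10 without PolyI:C 4, and it ran from -0.086 to -0.029 for Oasl2, 0.013 to 0.051 for Bst2, 0.015 to 0.050 for Trim30a and -0.022 to -0.0032 for Eif2ak2. Without variance moderation the calls of Herc6 (adjusted p = 0.0589), Ptpn2, Ifna6 and the 4 marker genes were lost, and with all rows tested, which adjusts over 35556, those of Ptpn2 (0.0809), Ifna6 (0.0781), Cnp and Ppp1r1b. The causes of the other changes were not tested. The averaging of a gene's probe sets left the differences of the 33 genes as they were, since each had 1.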
